A study of Mus musculus with 6 samples.

Results

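The 41 genes described here encode enzymes and complex subunits that modify histones or move nucleosomes. They were taken by symbol from a series table of 19330 mouse genes measured by RNA sequencing, and all 41 were found. By role they comprise 11 polycomb genes, 8 demethylases, 8 methyltransferases and their partners, 5 deacetylases, 2 acetyltransferases, and 7 remodelers with associated factors. The series holds 6 libraries. There were 2 libraries of control induced pluripotent stem cell lines (control iPSC, lines 3 and 7) and 2 of iPSC lines labelled as palmitoylcarnitine iPSC (PC iPSC, lines 5 and 13). The remaining libraries were 1 of embryonic stem cells (ESC) and 1 of mouse embryonic fibroblasts (MEF). Palmitoylcarnitine is the carnitine ester of palmitate, the form in which this fatty acid enters mitochondria. The ESC and all iPSC lines were grown with leukemia inhibitory factor on feeder layers of fibroblasts arrested by mitomycin C, whereas the MEF were grown in serum medium without it. The ESC library carries the title B6 and the source name B6/blu, which the labels do not explain. The sources used here give neither the cells' genotype and age nor the reprogramming method, and say nothing of the dose or timing of palmitoylcarnitine.

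Histone modifiers set, remove and read the chemical marks on nucleosomes, and remodelers use ATP to slide or evict them. In pluripotent cells, the polycomb repressive complexes keep developmental genes silent: PRC2 methylates histone H3 through Ezh1 or Ezh2, and PRC1 ubiquitylates histone H2A through Ring1 or Rnf2. Reprogramming of a fibroblast to an iPSC requires much of the fibroblast's chromatin to be rewritten, and several of the genes below are known to help or hinder that process.

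Totals ran from 26.51 to 27.99 M assigned reads a library, and 16326 to 17463 genes had at least 1 read. Levels are given as RPKM (assigned reads scaled by gene length and library total). Differences are log2 values from the counts, with the standard error (SE) of the edgeR quasi-likelihood fit, and a gene is called when its Benjamini-Hochberg adjusted p over 16435 tested genes is under 0.05. All 41 genes were tested. The single ESC and MEF libraries were assumed to vary like the iPSC lines. No label says that the lines came from separate cultures or animals, so each p-value measures only the spread between these samples.

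Features of the libraries bear on what follows. The 12 fibroblast markers were detected in every library, with a summed level of 584 RPKM in control iPSC 3, 1102 to 1320 RPKM in the other 3 iPSC lines, 314 RPKM in ESC and 6542 RPKM in MEF. In the iPSC lines Col1a1 (258 to 635 RPKM) and Col1a2 (136 to 284 RPKM) were its largest parts. The markers differed widely in their mean iPSC level relative to MEF, from 0.00585 (Dcn) and 0.0128 (Lum) to 0.474 (Thy1) and 0.544 (Col1a1). The sum therefore gives no share of fibroblast RNA. In the MEF library Pou5f1 stood at 158 RPKM and Sox2 at 88.2 RPKM, although the other 8 of the 10 pluripotency markers were under 0.1 RPKM there. On chromosome 11, 1019 genes had a median log2 difference of 0.41 between PC iPSC 5 and the mean of the other iPSC lines, and of 0.31 between ESC and the iPSC lines. In GENCODE vM21, exons of 17 of the 41 genes overlap another annotated gene. In 13 the partner lies on the opposite strand (Ezh2, Eed, Suz12, Mtf2, Rnf2, Kdm2b, Kdm6b, Setdb1, Suv39h1, Suv39h2, Sirt1, Smarcc1 and Smarcd1). In 5 it lies on the same strand (Kdm2b, Ehmt1, Ep300, Smarca4 and Chd4). Whether counting used strand is not given in the sources used here, so reads of these pairs may be mixed.

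In the pluripotent libraries the 41 genes together held 0.743% to 0.81% of all assigned reads, against 0.35% in MEF, and their mean iPSC levels ranked from percentile 32.9 (Phf19) to percentile 99.1 (Trim28) of the whole table. Trim28, a corepressor that brings Setdb1 to retroelements, was the highest of them. Its level was 355 and 338 RPKM in control iPSC 3 and 7, 302 and 330 RPKM in PC iPSC 5 and 13, 321 RPKM in ESC and 75.8 RPKM in MEF. Hdac1, the catalytic deacetylase of the NuRD, Sin3 and CoREST complexes, followed at 208, 186, 175 and 182 RPKM in the iPSC lines in that order, 144 RPKM in ESC and 51.3 RPKM in MEF. The third was Ash2l, a core subunit of the H3 lysine methyltransferase complexes that set active promoter marks. It measured 114, 103, 104 and 102 RPKM in the iPSC lines, 164 RPKM in ESC and 16.1 RPKM in MEF. For all of these, MEF was the lowest library.

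At the other end, Phf19, a Polycomb-like PRC2 partner, was nearly silent in iPSC. It stood at 0.571 and 0.524 RPKM in control iPSC 3 and 7, 1.04 and 0.266 RPKM in PC iPSC 5 and 13, 4.63 RPKM in ESC and 0.582 RPKM in MEF. Those levels rest on 27 to 108 reads in the iPSC lines, and its spread between lines, with a coefficient of variation of 53.8%, was the widest of the 41 genes. Bmi1, the PRC1 subunit known for silencing the Cdkn2a locus, was second lowest by mean, at 5.58 ± 0.855 RPKM (SD, n = 4 iPSC lines). Crebbp, an acetyltransferase paralogous to Ep300, came next with 7.68, 5.90, 6.10 and 5.87 RPKM in the iPSC lines, 5.41 RPKM in ESC and 11.8 RPKM in MEF. Unlike Phf19, Bmi1 and Crebbp were highest in MEF. The steadiest gene was Ehmt2, which encodes the methyltransferase G9a, with a coefficient of variation of 2.86% over the iPSC lines.

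**Figure D1:**
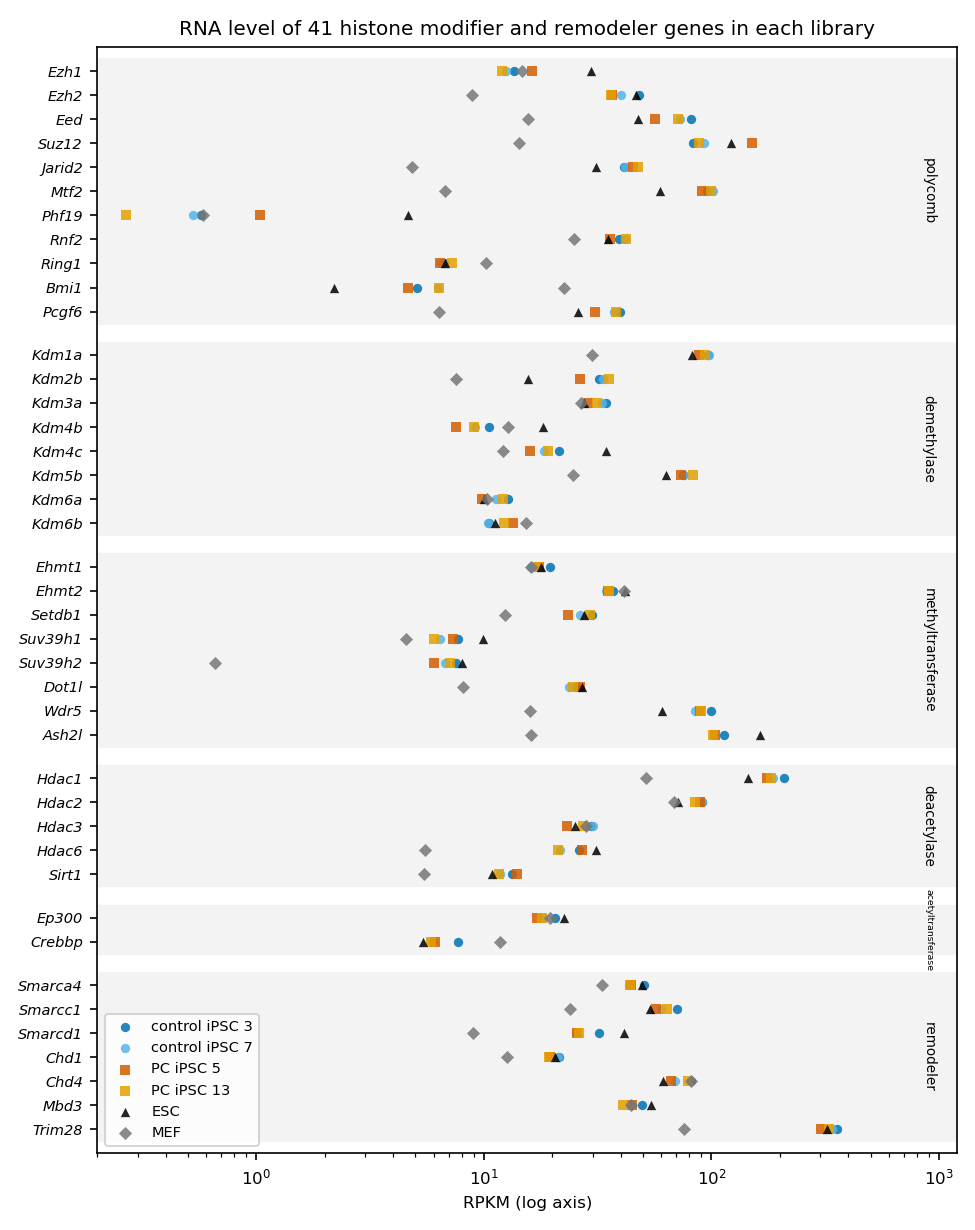
RPKM of each of the 41 genes in each of the 6 libraries on a log axis, grouped by role; every point is 1 library. The MEF diamonds lie left of the other points for most polycomb, methyltransferase and remodeler genes, right of them for Bmi1, Crebbp, Ring1 and Kdm6b, and Phf19 is the only gene under 2 RPKM in all iPSC lines.

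The windows of 250 bases upstream of the RefSeq start (GRCm38.p6) are shown for members that the comparisons below turn on and whose window holds no annotated exon, so that their base composition can be set beside their levels. They are printed 5′ to 3′ on the gene's strand, with matches to the searched motifs in capitals. Ezh1 (chr11:101226464-101226713, minus strand), Bmi1 (chr2:18676768-18677017, plus strand) and Kdm4c (chr4:74242247-74242496, plus strand) differed between iPSC and ESC. Suz12 (chr11:79992856-79993105, plus strand), Jarid2 (chr13:44730524-44730773, plus strand) and Mtf2 (chr5:108065424-108065673, plus strand) are PRC2 genes with large differences from MEF. The RefSeq gene span of Mtf2 begins at 108065660, so the last bases of its window lie within that span.
Ezh1: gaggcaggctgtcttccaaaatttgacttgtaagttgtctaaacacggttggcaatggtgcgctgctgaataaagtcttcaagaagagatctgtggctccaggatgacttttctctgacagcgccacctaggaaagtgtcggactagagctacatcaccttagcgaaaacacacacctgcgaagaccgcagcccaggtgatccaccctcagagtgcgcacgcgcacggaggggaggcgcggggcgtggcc
Bmi1: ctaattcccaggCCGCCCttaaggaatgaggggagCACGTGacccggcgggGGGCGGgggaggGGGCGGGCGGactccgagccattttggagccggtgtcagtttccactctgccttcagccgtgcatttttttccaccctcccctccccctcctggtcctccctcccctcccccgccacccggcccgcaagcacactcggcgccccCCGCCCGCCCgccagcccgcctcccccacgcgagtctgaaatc
Kdm4c: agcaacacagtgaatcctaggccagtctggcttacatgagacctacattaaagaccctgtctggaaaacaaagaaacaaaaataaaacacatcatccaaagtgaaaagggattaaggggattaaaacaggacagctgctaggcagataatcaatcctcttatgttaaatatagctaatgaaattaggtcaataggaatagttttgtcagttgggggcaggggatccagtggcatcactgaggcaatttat
Suz12: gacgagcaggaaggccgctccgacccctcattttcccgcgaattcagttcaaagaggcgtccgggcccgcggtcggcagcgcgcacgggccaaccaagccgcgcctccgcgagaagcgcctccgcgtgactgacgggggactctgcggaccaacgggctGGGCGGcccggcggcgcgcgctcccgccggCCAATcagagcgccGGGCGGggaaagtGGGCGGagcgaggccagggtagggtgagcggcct
Jarid2: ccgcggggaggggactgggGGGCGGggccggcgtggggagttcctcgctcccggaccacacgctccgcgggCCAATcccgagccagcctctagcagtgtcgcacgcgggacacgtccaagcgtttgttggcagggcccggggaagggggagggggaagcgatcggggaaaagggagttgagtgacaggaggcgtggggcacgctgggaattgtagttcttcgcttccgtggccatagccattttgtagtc
Mtf2: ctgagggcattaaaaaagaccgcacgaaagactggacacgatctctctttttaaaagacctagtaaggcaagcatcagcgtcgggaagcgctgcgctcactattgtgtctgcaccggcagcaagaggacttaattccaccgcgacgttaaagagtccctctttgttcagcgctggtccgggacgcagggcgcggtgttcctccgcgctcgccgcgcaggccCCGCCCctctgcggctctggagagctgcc

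Among these, Kdm4c holds no CpG and Suz12 holds 37, while Ezh1 has 14, Bmi1 21, and Jarid2 and Mtf2 23 each. RefSeq windows matched 35 of the 41 genes, and their median of 21 CpG stood against 14 over the 12334 matched tested genes and 10 over all 17492 protein-coding windows. Unlike the windows printed, some of the 35 hold annotated exon. It filled all 250 bases for Setdb1, Eed, Ep300 and Crebbp, and 207, 158 and 125 bases for Kdm2b, Smarcd1 and Ezh2. The GC box GGGCGG, counted on both strands, was in 30 of the 35 windows (85.7%), against 56.2% of tested genes and 42.7% of all windows. Ezh1, Kdm4c, Ezh2, Eed and Kdm1a were the 5 without it. The NFY motif CCAAT occurred in 9 windows (25.7%, against 36.5% of tested genes), among them Ezh2, Suz12 and Jarid2. The E-box CACGTG was found in Bmi1, Ehmt2, Kdm6a and Sirt1 (11.4%, against 8.14%), the ETS motif CCGGAAG in Dot1l, Setdb1 and Smarcc1 (8.57%, against 12.1%), and the E2F motif TTCCCGCC in either orientation in Suv39h2 and Trim28 (5.71%, against 3.35%). The YY1 motif AAGATGGC was in Phf19 alone (2.86%, against 1.78%), and an exact palindrome of the NRF1 motif was in none of the 35 windows and in 1.45% of those of tested genes. Overlapping matches of different motifs were each counted. These are counts of letters and say nothing of which factor is bound.

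The first comparison asks whether PC iPSC differ from control iPSC in the RNA of these genes. None of the 41 passed the test, and none had an unadjusted p under 0.05. Over all genes, 0 of 16435 were called (0%), 385 (2.34%) had an unadjusted p under 0.05, and DESeq2 also called 0. Of the 41 log2 differences, PC minus control, 32 were negative and 9 positive, with a median of -0.10 beside 0.00 over all tested genes. Every one of the 7 remodelers and 7 of the 8 methyltransferase genes had a negative value, none beyond -0.17. In simulated counts made from these libraries, with genes of at least 5 RPKM, the test called 76.5% of 2-fold differences between PC and control iPSC and 0% of 1.5-fold ones. The largest fitted fold among the 41 genes was 1.33, for Suz12.

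The 6 largest differences were in polycomb genes, demethylases and a deacetylase. Suz12, a core PRC2 subunit, stood at 82.9 and 92.8 RPKM in control iPSC 3 and 7 and at 151 and 88.4 RPKM in PC iPSC 5 and 13. Its log2 difference was 0.42 ± 0.24 (SE, adjusted p = 0.963), and line PC iPSC 5 alone lay above the others. Without that line the value was 0.02. Ezh2, the PRC2 methyltransferase dominant in dividing cells, measured 48.2 and 40.0 RPKM in the control lines and 36.5 and 36.3 RPKM in the PC lines (-0.30 ± 0.14, adjusted p = 0.963). Both PC lines were below both control lines. Without control iPSC 3 its difference was -0.16. Eed, the PRC2 subunit that binds the methyl mark, was at 81.4 and 72.6 RPKM against 56.5 and 71.3 RPKM (-0.29 ± 0.16, adjusted p = 0.963), again with no overlap, and at -0.10 without PC iPSC 5.

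Kdm6b, a demethylase that removes the polycomb mark, was at 10.5 and 10.4 RPKM in the control lines and 13.4 and 12.3 RPKM in the PC lines (0.28 ± 0.12, adjusted p = 0.963). Kdm4b, which demethylates the heterochromatin mark on H3, was at 10.5 and 9.09 RPKM against 7.56 and 9.0 RPKM (-0.26 ± 0.16, adjusted p = 0.963). Hdac3, the deacetylase of the NCoR and SMRT corepressors, was at 29.5 and 30.1 RPKM against 23.1 and 27.3 RPKM (-0.26 ± 0.15, adjusted p = 0.963). The groups did not overlap for any of these, but the distance between them was small for Kdm4b, where control iPSC 7 and PC iPSC 13 nearly met. Both PC lines lay below both control lines in 11 of the 41 genes (26.8%), against 15.2% of all tested genes, and above in 2, Jarid2 and Kdm6b (4.88%, against 16.2%). The 11 were Ezh2, Eed, Kdm1a, Kdm3a, Kdm4b, Hdac1, Hdac2, Hdac3, Ep300, Chd1 and Trim28.

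Single lines stood apart within this pattern. Control iPSC 3 was the highest iPSC line in 24 of the 41 genes (58.5%), against 28.1% of all tested genes, and PC iPSC 5 was the lowest in 21 (51.2%), against 28.4%. The median difference of the 41 genes was -0.03 without control iPSC 3 and -0.04 without PC iPSC 5, but -0.18 without control iPSC 7 and -0.19 without PC iPSC 13. Control iPSC 3 also had the smallest summed level of fibroblast markers and PC iPSC 5 the largest of the iPSC lines, and the part of this in the differences was not tested. In bulk RNA, fewer cells of a type and less RNA per cell cannot be told apart.

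**Figure D2:**
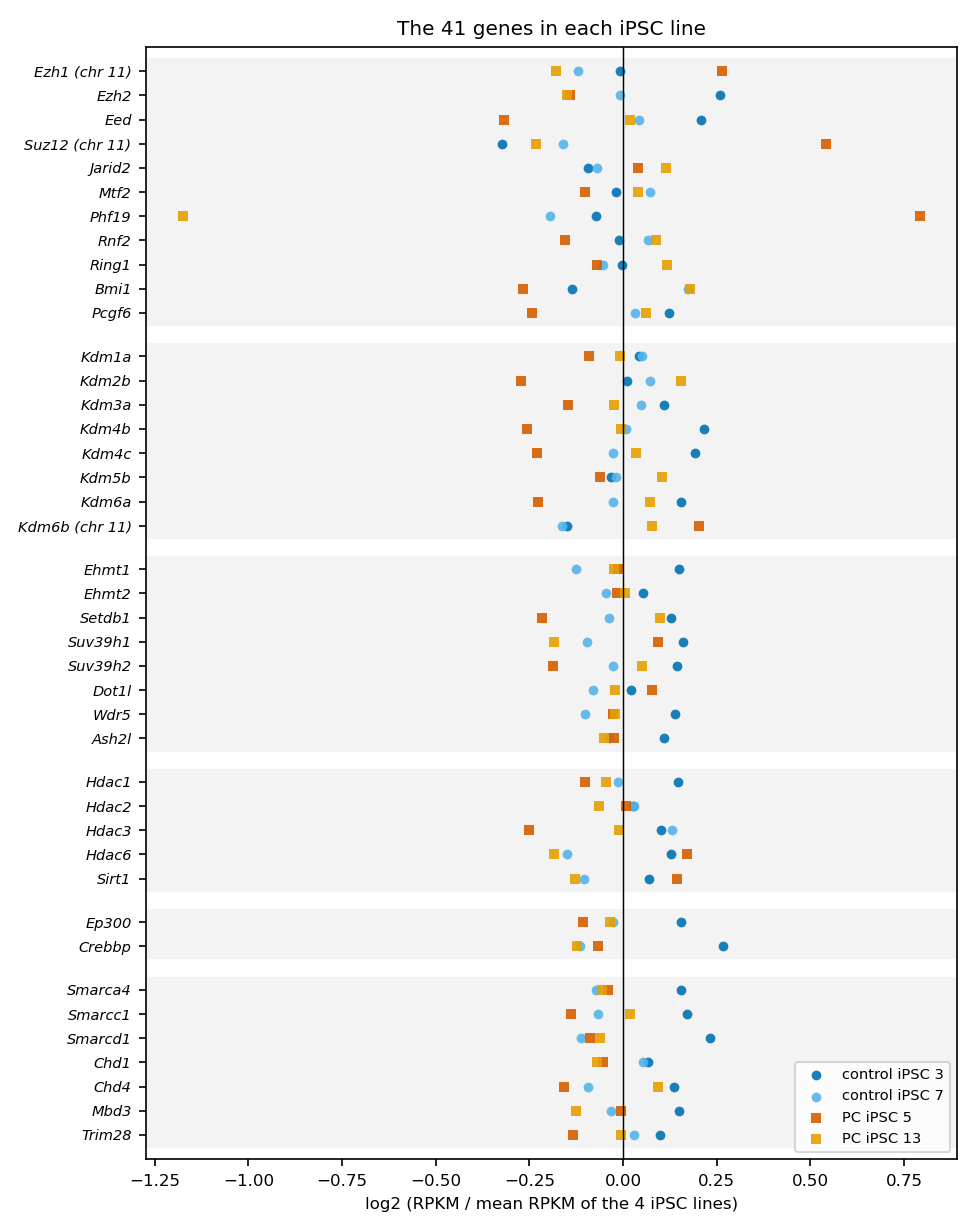
log2 ratio of the RPKM in each iPSC line to the mean RPKM of the 4 lines, for each of the 41 genes, with 1 point per line. Control iPSC 3 is the rightmost point in 24 genes and PC iPSC 5 the leftmost in 21, whereas PC iPSC 5 is rightmost for Ezh1, Suz12 and Kdm6b, the genes marked as lying on chromosome 11.

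The 3 members on chromosome 11 went against the other members in PC iPSC 5. Ezh1, Suz12 and Kdm6b were all highest in that line. They stood 0.31, 0.73 and 0.23 above the mean of the other iPSC lines in log2 CPM (counts scaled to the TMM-adjusted library total). The 38 members elsewhere had a median of -0.18 in the same line, with 4 of them highest and 21 lowest there. Of 15 other chromatin genes on chromosome 11, 13 were also highest in PC iPSC 5, with a median of 0.36, close to the 0.41 of the chromosome as a whole, where 93.1% of genes were higher. On the other autosomes the median in this line was -0.05. In ESC, Ezh1 stood 1.17 and Suz12 0.32 above the mean of the iPSC lines, and Kdm6b 0.00, beside a chromosome median of 0.31. Suz12 in PC iPSC 5 and Ezh1 in ESC lay well above the chromosome median of the same library, Suz12 in ESC lay level with it, and the other values of the 3 genes lay below it.

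**Figure D3:**
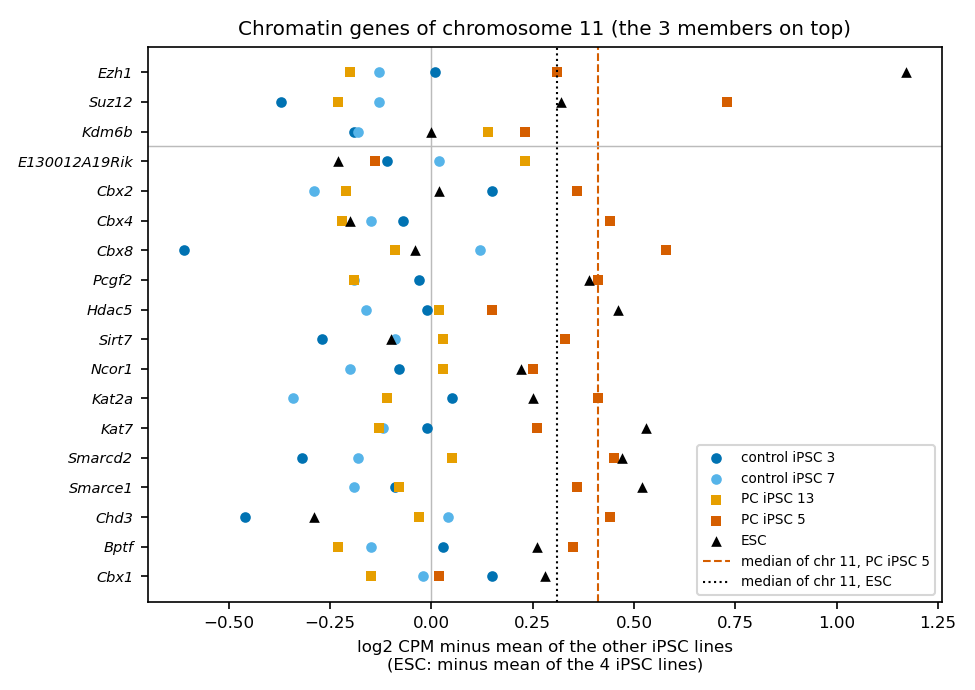
log2 CPM of chromatin genes on chromosome 11 in each iPSC line minus the mean of the other iPSC lines, and in ESC minus the mean of the 4 iPSC lines; the 3 genes described here are above the grey line. The dashed line is the chromosome median in PC iPSC 5 (0.41) and the dotted line that in ESC (0.31); 13 of the 15 other genes have PC iPSC 5 as the highest iPSC line.

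The 3 X-linked members showed no common pattern. Hdac6, a largely cytoplasmic deacetylase, was at 26.2, 21.6, 27.0 and 21.1 RPKM in control iPSC 3, control iPSC 7, PC iPSC 5 and PC iPSC 13, 31.2 RPKM in ESC and 5.50 RPKM in MEF. Suv39h1, a methyltransferase of pericentric heterochromatin, measured 7.69, 6.43, 7.34 and 6.05 RPKM in the same lines, 9.93 RPKM in ESC and 4.56 RPKM in MEF. Kdm6a, which removes the polycomb mark, was at 12.8, 11.3, 9.83 and 12.1 RPKM in the iPSC lines, 9.97 RPKM in ESC and 10.3 RPKM in MEF. The first pair was lowest in MEF, while for Kdm6a the MEF and ESC values lay within or beside the range of the iPSC lines. Its Y-linked paralog Uty was detected in all 6 libraries, at 3.05 to 8.82 RPKM. Other sex-linked genes were less even. The Y-linked Eif2s3y was at 18.6 to 33.5 RPKM in the iPSC lines, 3.48 RPKM in ESC and 30.3 RPKM in MEF. The X-linked Xist was at 4.17 to 6.95 RPKM in the iPSC lines, 2.54 RPKM in ESC and 0.00798 RPKM in MEF. The part of sex in the levels of these genes was not tested.

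The second comparison sets the 4 iPSC lines against ESC. Of the 41 genes, 7 were called (17.1%), against 10.4% of all tested genes. The share of all genes rose to 17.5% without control iPSC 3, 16.7% without control iPSC 7 and 15.7% without PC iPSC 5, where 8, 7 and 9 of the 41 genes were called. Bmi1 and Kdm2b were higher in iPSC (4.88%, against 4.71% of all genes), and Phf19, Ezh1, Kdm4b, Kdm4c and Ash2l were lower (12.2%, against 5.71%). At least 2-fold, Bmi1 was higher (2.44%, against 3.52%) and Phf19, Ezh1 and Kdm4b were lower (7.32%, against 3.43%). By role, the calls were 3 of 11 polycomb genes (27.3%), 3 of 8 demethylases (37.5%) and 1 of 8 in the methyltransferase group (12.5%). None of the 5 deacetylases, 2 acetyltransferases or 7 remodelers was called. At the 10.4% of all genes, groups of these sizes would hold few or no calls, so these counts do not separate the roles. The median difference of the 41 genes was 0.00, beside 0.03 over all tested genes. All 4 iPSC lines lay above ESC in 17 members (41.5%, against 37.3% of all genes) and below it in 13 (31.7%, against 29.3%).

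Among the PRC2 genes, Ezh1, the methyltransferase with the weaker activity of the pair, was at 13.5, 12.5, 16.3 and 12.0 RPKM in control iPSC 3, control iPSC 7, PC iPSC 5 and PC iPSC 13 and at 29.4 RPKM in ESC. Every line was below ESC, 2.24-fold by the fit (log2 difference -1.16 ± 0.17, adjusted p = 0.0161). Phf19 fell further: at 0.266 to 1.04 RPKM in the lines and 4.63 RPKM in ESC, it was 7.98-fold lower in iPSC (-3.0 ± 0.52, adjusted p = 0.0222). Without PC iPSC 5, its highest line, the value was -3.65. The MEF value, 0.582 RPKM, lay within the range of the iPSC lines. The PRC2 subunits Ezh2, Eed, Suz12, Jarid2 and Mtf2 were not called. Mtf2, the paralog of Phf19, was the closest at 95.8, 102, 90.4 and 99.8 RPKM against 59.5 RPKM in ESC (0.66 ± 0.16, adjusted p = 0.051), above ESC in every line. Mtf2 was called by DESeq2, with RLE scaling, with library totals only, without a filter and among genes of at least 5 RPKM. It was not called in the limma fits or with scaling without chromosome 11. Leaving out PC iPSC 5 or 13 made the call, and leaving out control iPSC 3 or 7 did not.

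In PRC1, Bmi1 was at 5.08, 6.29, 4.64 and 6.32 RPKM in the iPSC lines and 2.19 RPKM in ESC, resting on 220 reads there. All lines exceeded ESC, 2.48-fold by the fit (1.31 ± 0.27, adjusted p = 0.032). Bmi1 was at 22.4 RPKM in MEF. The summed fibroblast markers were at 314 RPKM in ESC and 584 to 1320 RPKM in the iPSC lines, and their part in the Bmi1 difference was not tested. The other PRC1 genes, Rnf2, Ring1 and Pcgf6, were not called, with log2 differences of 0.13, -0.05 and 0.44.

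Of the demethylases, Kdm2b, which recruits a PRC1 variant to CpG islands, was higher in iPSC. It was at 32.1, 33.5, 26.4 and 35.5 RPKM in the lines and 15.6 RPKM in ESC (1.99-fold, 0.99 ± 0.22, adjusted p = 0.0366). The heterochromatin demethylases Kdm4b and Kdm4c were lower. Kdm4b stood at 10.5, 9.09, 7.56 and 9.0 RPKM against 18.2 RPKM in ESC (2.08-fold lower, -1.06 ± 0.17, adjusted p = 0.0191). Kdm4c was at 21.3, 18.3, 15.9 and 19.1 RPKM against 34.5 RPKM (1.91-fold lower, -0.93 ± 0.17, adjusted p = 0.0234). The iPSC and ESC values did not overlap for any of these genes. The other demethylases, Kdm1a, Kdm3a, Kdm5b, Kdm6a and Kdm6b, differed by 0.00 to 0.25 and were not called.

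The call in the methyltransferase group was Ash2l, lower in all 4 lines than in ESC (114, 103, 104 and 102 RPKM against 164 RPKM; 1.59-fold, -0.67 ± 0.14, adjusted p = 0.0337). Its partner in the same complexes, Wdr5, had the opposite sign, with 100, 84.7, 89.3 and 89.6 RPKM in the lines and 60.7 RPKM in ESC (0.54 ± 0.16, adjusted p = 0.0784), and was not called. Smarcd1, a subunit of the BAF remodeling complex, came near the threshold from below, at 32.1, 25.3, 25.7 and 26.2 RPKM against 41.1 RPKM (-0.63 ± 0.16, adjusted p = 0.0543). Trim28 and Kdm6b were level with ESC, with differences of 0.00 ± 0.16 and 0.00 ± 0.14. All 7 calls held under each count-based setting that tested the gene and with any iPSC line left out, and none was made by limma on log2 RPKM, with or without quantile normalization, where adjusted p for the 7 ran up to 0.101. Those limma fits called 3 to 169 genes in the whole table.

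**Figure D4:**
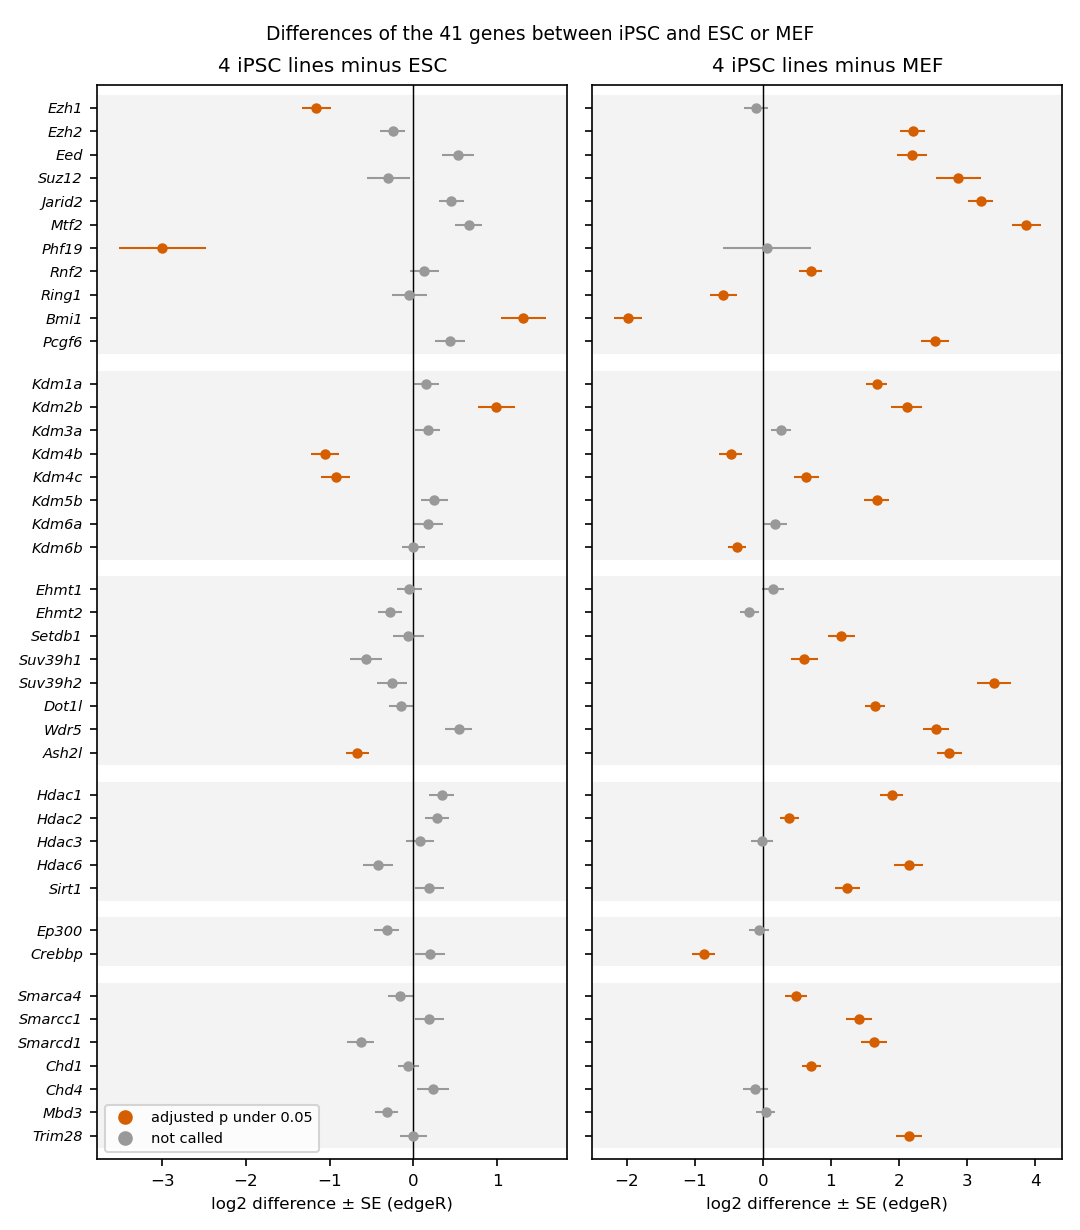
log2 difference ± SE from the edgeR fit for each of the 41 genes, the 4 iPSC lines minus ESC on the left and minus MEF on the right, with called genes (adjusted p under 0.05) in orange. Of the 41 genes, 7 are called on the left and 31 on the right, and the 2 panels have different scales.

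The third comparison, iPSC against MEF, asks how these genes differ between reprogrammed cells and fibroblasts. Of the 41 genes, 31 were called (75.6%), against 68.1% of all tested genes. Among genes of at least 5 mean RPKM, 28 of 40 were called, a share no higher than the 72.5% of all genes in that setting. Of those 28, 22 were higher and 6 lower in iPSC, beside 3406 higher and 3152 lower among all genes. In the main fit the direction was uneven: 26 of the 41 were higher in iPSC (63.4%, against 36.5% of all genes) and 5 lower (12.2%, against 31.6%). At least 2-fold, 20 were higher (48.8%, against 28.5%) and 1, Bmi1, was lower (2.44%, against 24.1%). All 4 lines lay above MEF in 28 members (68.3%, against 47.3%) and below it in 6 (14.6%, against 41.7%). The median difference was 0.71, beside 0.16 over all genes. That all-gene median was 0.07 with DESeq2's size factors and 0.02 after quantile normalization, where the median of the 41 genes was 0.62 and 0.65. The MEF library also held the Pou5f1 and Sox2 reads given above, and their part in these differences was not tested.

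Of the 7 PRC2 genes, 5 were higher in iPSC and 2, Ezh1 and Phf19, were not called. Mtf2, with the largest difference of the 41 genes, was at 95.8, 102, 90.4 and 99.8 RPKM in the iPSC lines and 6.75 RPKM in MEF (3.87 ± 0.21, adjusted p = 1.62e-05), 14.6-fold higher. Jarid2, the cofactor that helps PRC2 reach its targets, was at 41.1, 41.8, 45.1 and 47.5 RPKM against 4.85 RPKM (3.20 ± 0.18, adjusted p = 1.89e-05). Suz12 was at 82.9 to 151 RPKM in the lines and 14.2 RPKM in MEF (2.87 ± 0.33, adjusted p = 0.000312). The lines were far above MEF for all of these, also without PC iPSC 5. Ezh2, at 36.3 to 48.2 RPKM against 8.86 RPKM, was 4.59-fold higher (2.20 ± 0.18, adjusted p = 7.78e-05), and Eed, at 56.5 to 81.4 RPKM against 15.6 RPKM, was 4.56-fold higher (2.19 ± 0.22, adjusted p = 0.000167). Ezh1 did not follow, at 12.0 to 16.3 RPKM in the lines and 14.7 RPKM in MEF, and neither did Phf19 (0.06 ± 0.64).

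The PRC1 genes were split. Pcgf6, the subunit of a germline-gene repressing PRC1 variant, was at 39.5, 37.1, 30.7 and 37.9 RPKM in the iPSC lines and 6.35 RPKM in MEF (2.53 ± 0.21, adjusted p = 8.22e-05). Bmi1, its counterpart in canonical PRC1, was at 4.64 to 6.32 RPKM against 22.4 RPKM, 3.94-fold lower in iPSC (-1.98 ± 0.21, adjusted p = 0.000226). Of the ubiquitin ligases, Rnf2 was 1.63-fold higher and Ring1 1.5-fold lower in iPSC (adjusted p = 0.00957 and 0.0341). For Ring1 the call was lost without control iPSC 7 and with quantile normalization.

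Among the demethylases, the 3 that were at least 2-fold higher in iPSC were Kdm2b, Kdm1a and Kdm5b. Kdm2b was at 26.4 to 35.5 RPKM against 7.52 RPKM in MEF (2.11 ± 0.23, adjusted p = 0.000275). Kdm1a, the amine oxidase of the CoREST complex, was at 96.4, 97.1, 88.0 and 93.2 RPKM against 29.8 RPKM (1.67 ± 0.16, adjusted p = 0.000156). Kdm5b, which removes the active promoter mark, was at 75.3, 76.0, 73.8 and 82.7 RPKM against 24.6 RPKM (1.67 ± 0.18, adjusted p = 0.00023). All lines lay above MEF for each of them. Kdm4c was 1.56-fold higher, and Kdm4b and Kdm6b were 1.39-fold and 1.30-fold lower in iPSC, calls with adjusted p of 0.0188, 0.0442 and 0.0368. The Kdm4b call was lost without control iPSC 7 and in every limma fit, the Kdm6b call without either control line, and the Kdm4c call among genes of at least 5 RPKM. Kdm3a and Kdm6a were not called.

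In the methyltransferase group, Suv39h2, a heterochromatin methyltransferase known from germ cells and early embryos, had the second largest difference of the 41 genes. It was at 7.55, 6.71, 6.01 and 7.08 RPKM in the iPSC lines and 0.659 RPKM in MEF (3.39 ± 0.25, adjusted p = 4.9e-05). Its paralog Suv39h1 was 1.53-fold higher (0.61 ± 0.20, adjusted p = 0.0321), a call lost in 7 of 13 alternatives, leaving out control iPSC 3 or PC iPSC 5 among them. The scaffold subunits Ash2l and Wdr5 were 6.68-fold and 5.82-fold higher, at 102 to 114 against 16.1 RPKM (2.74 ± 0.18, adjusted p = 3.11e-05) and at 84.7 to 100 against 15.9 RPKM (2.54 ± 0.19, adjusted p = 4.91e-05). Dot1l, which methylates the nucleosome core of H3 in transcribed genes, was at 25.3, 23.6, 26.3 and 24.6 RPKM against 8.06 RPKM (1.65 ± 0.15, adjusted p = 0.00013). Setdb1, the retroelement silencer recruited by Trim28, was at 29.7, 26.5, 23.4 and 29.1 RPKM against 12.4 RPKM (1.15 ± 0.20, adjusted p = 0.0019). Every line lay above MEF for each of these genes. Ehmt1 and Ehmt2, which form the G9a and GLP heterodimer, differed by 0.15 and -0.20 and were not called.

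Of the deacetylases, Hdac6, at 21.1 to 27.0 RPKM in the iPSC lines and 5.50 RPKM in MEF, was 4.42-fold higher (2.14 ± 0.21, adjusted p = 0.000167). Hdac1, at 175 to 208 RPKM against 51.3 RPKM, was 3.71-fold higher (1.89 ± 0.17, adjusted p = 0.00012). Sirt1, an NAD-dependent deacetylase, was at 13.3, 11.8, 14.0 and 11.6 RPKM against 5.43 RPKM (1.24 ± 0.18, adjusted p = 0.000883). Hdac2 was 1.31-fold higher (adjusted p = 0.0413), and that call was lost in 7 of 13 alternatives, those without control iPSC 3 or 7 included. Hdac3 did not differ detectably (-0.01 ± 0.16). Of the acetyltransferases, Crebbp was 1.82-fold lower in iPSC (-0.87 ± 0.17, adjusted p = 0.00333), with every line below MEF, and Ep300 was at 17.1 to 20.5 RPKM against 19.5 RPKM and was not called.

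Among the remodelers and associated factors, Trim28 was 4.44-fold higher in iPSC (2.15 ± 0.19, adjusted p = 0.000104). The BAF subunits Smarcd1 and Smarcc1 were also higher. Smarcd1 was at 25.3 to 32.1 RPKM in the lines and 8.92 RPKM in MEF (1.63 ± 0.19, adjusted p = 0.000342). Smarcc1, the core scaffold of the complex, was at 70.8, 60.1, 57.1 and 63.7 RPKM against 24.0 RPKM (1.41 ± 0.19, adjusted p = 0.000603). Chd1, a remodeler that follows elongating polymerase, was 1.64-fold higher (0.71 ± 0.14, adjusted p = 0.0039). The BAF ATPase Smarca4 was 1.40-fold higher (0.49 ± 0.16, adjusted p = 0.0308), a call lost without control iPSC 3, in edgeR with RLE scaling, with quantile normalization and among genes of at least 5 RPKM, but made by DESeq2. The NuRD subunits Chd4 and Mbd3 were not called, at 66.4 to 81.3 RPKM against 81.1 RPKM and at 41 to 49.6 RPKM against 44.2 RPKM.

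ESC and MEF, compared without a test as 1 library against 1, differed at least 2-fold in 25 of the 41 genes (61%), against 56.6% of the 14829 genes compared, of which 23 were higher in ESC (56.1%, against 28.1%). Bmi1 and Crebbp were the 2 lower ones (4.88%, against 28.5%), by log2 ratios of RPKM of -3.35 and -1.12. Suv39h2 (3.60), Ash2l (3.35), Mtf2 (3.14) and Suz12 (3.10) had the largest positive ratios. Bmi1 was thus lowest in ESC, intermediate in the 4 iPSC lines and highest in MEF, and Ezh1 was highest in ESC and similar in iPSC and MEF.

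Ratios between paralogs, taken within each library on the RPKM scale, separated MEF from the pluripotent libraries for several pairs and are given as descriptions. The ratio of Ezh2 to Ezh1 was 3.57 and 3.22 in control iPSC 3 and 7, 2.24 and 3.03 in PC iPSC 5 and 13, 1.58 in ESC and 0.603 in MEF. PC iPSC 5, with more RNA of chromosome 11, was the lowest of the iPSC lines. The ATPases Smarca4 and its paralog Smarca2, of which 1 is used per BAF complex, had a ratio of 28.0, 15.9, 14.8 and 20.4 in the iPSC lines, 29.2 in ESC and 0.722 in MEF. Smarca2 itself was at 1.81 to 2.99 RPKM in the iPSC lines, 1.69 RPKM in ESC and 45.6 RPKM in MEF. For the scaffolds, Smarcc1 to Smarcc2 was 5.04 to 6.76 in iPSC, 7.39 in ESC and 0.614 in MEF. Smarcd1 to Smarcd3 followed with 8.67 to 14.4, 22.7 and 0.795, while Smarcd1 to Smarcd2 was 0.523 to 1.01, 0.806 and 0.272. In all of these BAF pairs MEF had the lowest ratio. Control iPSC 3 had the highest ratio among the iPSC lines for the Smarca4, Smarcd3 and Smarcd2 pairings. For Smarcc1 to Smarcc2 it had 6.66, below the 6.76 of PC iPSC 13. Smarcd2 lies on chromosome 11 and was at 31.9 RPKM in control iPSC 3, 49.1 RPKM in PC iPSC 5 and 32.8 RPKM in MEF. Control iPSC 3 also had the least fibroblast marker RNA of the lines. The part of this and of chromosome 11 in the ratios was not tested.

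**Figure D5:**
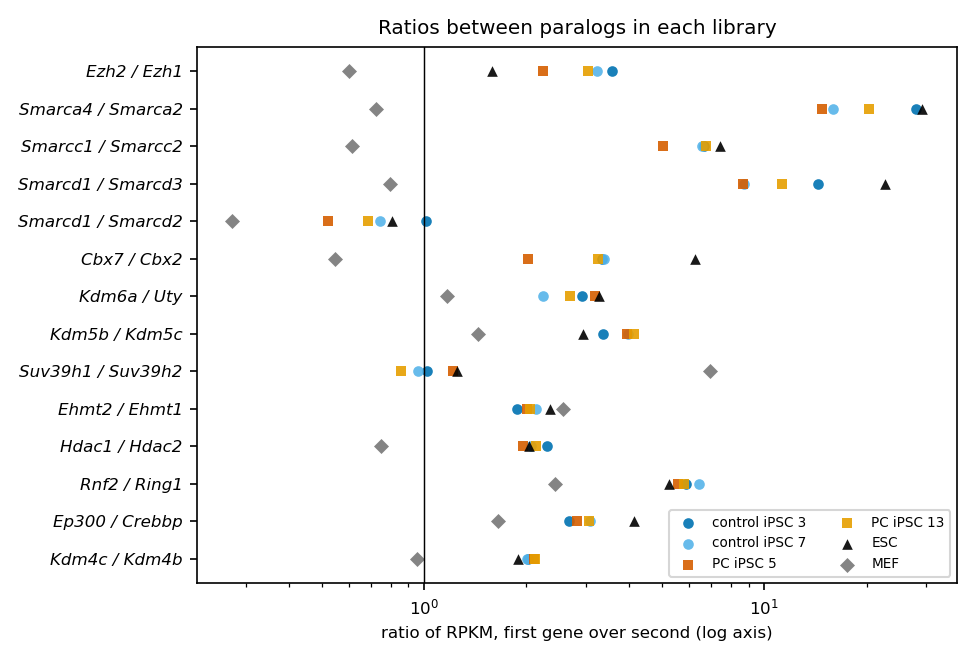
Ratio of RPKM between paralogs in each of the 6 libraries, first gene over second, on a log axis with a line at 1. MEF lies apart from the 5 pluripotent libraries for most pairs, below them for Smarca4 over Smarca2 (0.722) and above them for Suv39h1 over Suv39h2 (6.92).

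The other pairs varied in the size and direction of the difference. Suv39h1 to Suv39h2 was 0.855 to 1.22 in iPSC, 1.25 in ESC and 6.92 in MEF, the highest MEF ratio of the pairs compared. The ratio of Hdac1 to Hdac2 was 1.96 to 2.30 in iPSC, 2.03 in ESC and 0.747 in MEF, and that of Pcgf6 to Bmi1 was 5.90 to 7.77, 11.8 and 0.284. Rnf2 to Ring1 was 5.59 to 6.45, 5.24 and 2.43, so Rnf2 was the higher ligase in every library. Ep300 exceeded Crebbp throughout, at 2.67 to 3.07, 4.14 and 1.65. Kdm4c to Kdm4b stayed at 2.01 to 2.12 in the iPSC lines and 1.89 in ESC although both genes were lower in iPSC than in ESC, and was 0.955 in MEF. The ratio of Kdm6a to its Y-linked paralog Uty was 2.24 to 3.19 in iPSC, 3.27 in ESC and 1.17 in MEF. That of the demethylases Kdm5b and Kdm5c was 3.36 to 4.15, 2.93 and 1.44, and that of the polycomb readers Cbx7 and Cbx2 was 2.02 to 3.38, 6.24 and 0.547.

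A wider list of 167 other chromatin genes, of which 166 were tested, gave the setting for these counts. Against ESC 15 were called (9.04%, against 10.4% of all genes), 4 higher and 11 lower in iPSC. Canonical PRC1 was among the lower genes: Phc1, its polyhomeotic subunit, was at 71.4, 56.8, 58.2 and 54.0 RPKM in the lines and 141 RPKM in ESC (-1.28, adjusted p = 0.0111), and Cbx7, which binds the polycomb mark, was at 32.1, 25.5, 22.2 and 25.6 against 54.9 RPKM (-1.10, adjusted p = 0.0184). Pcgf5 (-1.05), the deacetylases Sirt3 (-1.16) and Hdac4 (-0.74), the remodeling genes Chd7 (-1.13) and Mta1 (-1.02), and the methyltransferase genes Setd7 (-0.84) and Kmt2e (-0.63) were lower too. Smarcad1 (0.95) and the acetyltransferase Kat2b (0.80) were higher. Outside the rule for naming genes, and named after their values were seen, the PRC1 corepressor Bcorl1 (0.92) and the PRC2 cofactor Aebp2 (0.65) were the other 2 higher genes. For the 11 genes named by the rule, the 3 limma fits ended each call, as they did for the 7 above, and those of Setd7, Kmt2e and Hdac4 were lost in other settings as well, for Hdac4 without PC iPSC 13.

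Against MEF 106 of the 166 were called (63.9%, against 68.1% of all genes), 60 higher and 46 lower in iPSC. The PRC2 cofactor Epop, listed as E130012A19Rik, was at 110, 117, 112 and 131 RPKM in the lines and 1.86 RPKM in MEF (6.01, adjusted p = 7.6e-06), the largest difference of the list. Hells (4.68), Hat1 (4.43), Cbx7 (3.76), Prmt7 (3.14), Chd5 (3.03), Phc1 (3.01), Dpy30 (2.49), Rcor2 (2.01), Ing5 (1.95) and Ncoa3 (1.77) were also higher. Smarca2 (-4.22), Hdac9 (-3.27), Kmt2e (-2.89), Phf2 (-2.41), Smarcd3 (-2.09), Smarcc2 (-1.93), Rcor3 (-1.80), Kdm7a (-1.70) and the Y-linked Kdm5d (-1.69) were lower. Among all tested genes 36.5% were called higher and 31.6% lower. For polycomb genes beyond the 41, 12 of 27 were higher and 10 lower, near those shares, with a median of 0.15, beside 2.19 for the 11 polycomb genes described here. For the other demethylases 1 of 15 was higher (Mina, 0.51) and 6 were lower, and for the other acetyltransferases 14 of 19 were higher and 1 was lower (Kat6a, -0.65). Mina and Kat6a were named after their values were seen.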

How the data were processed

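RNA of 6 mouse libraries was sequenced with an mRNA kit, per the labels' protocols. Per the file headers, the authors deposited a count of uniquely assigned reads for each gene, the library total, and RPKM, which equals the count over gene length and total. The submitters' processing notes name CASAVA 1.8.2 and mm10. Which aligner and counting program were used, and whether strand was, is not given in the sources used here. From the counts, differences were fitted by edgeR 4.0.16, run under R 4.3.3 (TMM scaling, filterByExpr, quasi-likelihood test, 4 group means over 6 libraries, 2 residual degrees of freedom). Levels are the deposited RPKM. DESeq2 1.42.0, limma 3.58.1, other scalings and filters, and leaving out each iPSC line were the alternatives. The fit was tested on simulated data with 200 changed genes. The 41 genes, the other lists and the alternatives were chosen with earlier results of these data known. Values are given by rule for called genes, the 6 largest differences between PC and control iPSC, genes of chromosomes 11 and X, and the 3 highest and 3 lowest levels. From each other list, up to 3 genes per comparison are named, plus the paralogs set beside the 41 genes. Coordinates are RefSeq GRCm38.p6, matched by gene ID.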

Additional observations from a re-analysis of the deposited data

Results flagged for a closer look

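In 5 of the 41 genes (12.2%, against 7.64% of all genes examined) 1 of the 4 iPSC lines stood far from the other 3, by a gap that took more of the whole range than Dixon's critical value for 4 samples allows. Chance flags about 1 in 20 groups. The gap was 0.882 of the range for Ash2l, 0.870 for Crebbp, 0.867 for Smarcd1 and 0.859 for Smarca4, with control iPSC 3 as the highest line in each. For Suz12 it was 0.854, with PC iPSC 5 the highest at 151 RPKM. Control iPSC 3 measured 114 RPKM for Ash2l, 7.68 for Crebbp, 32.1 for Smarcd1 and 50.6 for Smarca4, where the other lines ran from 102 to 104, 5.87 to 6.10, 25.3 to 26.2 and 43.2 to 44.2 RPKM. The fibroblast markers were lowest in control iPSC 3 among the iPSC lines (584 RPKM against 1102 to 1320 RPKM), where the first 4 genes were highest. Of these, Ash2l, Smarcd1 and Smarca4 were lowest in MEF, whereas Crebbp was highest there (11.8 RPKM). For Suz12, the chromosome 11 median in PC iPSC 5 was 0.41. The part of the markers and of chromosome 11 was not tested.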

How the results depend on the processing

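Of the counts and named genes recomputed under each alternative, none changed sign; genes that were not called against ESC or MEF, the paralogs Smarcc2 and Smarcd3, and Bcorl1, Aebp2, Mina and Kat6a were not among them. The median iPSC minus ESC difference of the 41 genes, 0.00, ran from -0.04 to 0.04. For PC against control iPSC, 0 genes were called in every setting except without control iPSC 7, where 309 were called in the whole table (range over left-out lines 0 to 309), and 0 of the 41 genes were called throughout. For iPSC against ESC, 1713 genes were called in the table. The count was 169 with quantile normalization, 11 with limma on log2(RPKM + 1), 3 with log2(RPKM + 0.1), 953 among genes of at least 5 mean RPKM, and 1781 to 2873 with 1 line left out, the largest without control iPSC 3 and 2734 without control iPSC 7. Of the 41 genes, the 3 limma settings called 0, DESeq2 called 11 (Jarid2, Mtf2, Wdr5 and Smarcd1 besides the 7), and the left-out lines gave 7 to 9. The share of calls higher in iPSC was 45.2%, 55.3% with DESeq2 and 22.5% after quantile normalization. For iPSC against MEF, the 5 RPKM filter called 6558 of the 9044 genes it left, against 11185 of 16435, and 27 to 31 of the 41 genes were called with a line left out. Against MEF, the 5 RPKM filter called 28 of the 40 members it kept. Filters test fewer genes, and the cause of the other changes was not tested. No paired analysis was possible because the control and PC lines share no replicate number.

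Depth was even, at 26.51 to 27.99 M reads a library, and Phf19 rested on the fewest reads of the 41 genes, 27 to 108 in iPSC. Simulated 2-fold differences were called in 53% of genes against ESC and 55.5% against MEF, and 1.5-fold ones in 0%. Only a small set of genes was changed in the simulations, whereas 10.4% of tested genes were called against ESC and 68.1% against MEF. The adjusted p depends on how many genes differ, so these shares give no detection limit for either comparison. Against MEF, for example, Kdm6b was called at 1.30-fold.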
